A study of Mus musculus with 16 samples.

Results

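Aminoacyl-tRNA synthetases, the enzymes that attach each amino acid to its transfer RNA, were followed across cultured mouse articular chondrocytes as a group of 36 genes. The genes were taken by name from the 55450 rows of each library's expression table. They comprised 20 genes for the cytosolic enzymes and 16 genes, with the suffix 2 in their symbols, for the mitochondrial enzymes. All 36 were present in the tables, with methionyl-tRNA synthetase listed there as Mars1 and called Mars here.

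Messenger RNA was measured by sequencing in 16 libraries, 4 in each of 4 groups, in a study of senescence brought about by DNA-damaging drugs, with an inflammatory cytokine for comparison. In the bleomycin group, 4 h of serum-free hyaluronidase (4 U/mL) preceded a 24 h exposure to bleomycin (50 µg/mL), which breaks DNA strands, and the cells then stood for 5 days without drug. In the doxorubicin group, this inhibitor of topoisomerase II was present at 50 nM over 5 days, with the medium changed each 48 h. In the IL-1β group, interleukin-1 beta, an inflammatory cytokine, was present at 1 ng/mL during 24 h. Vehicle cells received as much PBS over those 24 h. All groups were primary chondrocytes in medium with 10% FBS at 3% oxygen. The labels give neither the age or strain of the mice nor whether the 4 libraries of a group came from separate animals or cultures, so the p-values measure only the spread between these libraries. No drug group had a vehicle group labelled with its own days in culture or with hyaluronidase, so the effects of the drugs, of the added culture time and, for bleomycin, of hyaluronidase cannot be told apart.

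Each synthetase reads its amino acid and its tRNAs, and the charged tRNA is then carried to the ribosome by elongation factors. Cytosolic and mitochondrial translation use separate enzymes for most amino acids, although Gars and Kars each encode both forms and Eprs encodes 1 protein that charges 2 amino acids, glutamate and proline. Several cytosolic enzymes sit together in the multisynthetase complex, held by the scaffold proteins Aimp1, Aimp2 and Eef1e1. Many of the cytosolic genes are known targets of the transcription factor ATF4, which is made when the initiation factor eIF2α is phosphorylated and which binds a composite DNA element called CARE. Chondrocytes translate large amounts of collagen and other matrix proteins, a use of charged tRNA.

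Promoter sequences are shown because the letters of the CARE core, TGATGNAA with N for any base, were searched on both strands of the promoters that RefSeq gives on build GRCm38.p6, from 250 bases before to 50 bases after each gene's start. The core was present in 5 of the 13 cytosolic promoters matched (38.5%), in 0 of the 14 mitochondrial promoters matched and in 3.97% of 32851 promoters. These 5 were Yars (chr4:129189653-129189952, + strand), Gars (chr6:55037751-55038050, + strand), Aars (chr8:111033592-111033891, + strand), Iars (chr13:49681880-49682179, + strand) and Tars (chr15:11399609-11399908, - strand). Beside them stand 2 promoters with no such letters, of Mars (chr10:127311737-127312036, - strand), which fell in each treated group, and of Qars (chr9:108507755-108508054, + strand), which did not pass. All 5 genes with the core fell in each comparison with vehicle, and so did most of the 8 matched genes without it (Dars, Eprs, Farsa, Farsb, Kars, Mars, Qars and Sars): 6 with bleomycin, 7 with doxorubicin and 6 with IL-1β. The shares of all tested genes called lower were 19.0%, 22.8% and 18.4% in these comparisons. A link between the core and the fall was not tested. The capitals mark the core or its reverse complement, and each promoter is written 5′ to 3′ on the gene's own strand.
Yars: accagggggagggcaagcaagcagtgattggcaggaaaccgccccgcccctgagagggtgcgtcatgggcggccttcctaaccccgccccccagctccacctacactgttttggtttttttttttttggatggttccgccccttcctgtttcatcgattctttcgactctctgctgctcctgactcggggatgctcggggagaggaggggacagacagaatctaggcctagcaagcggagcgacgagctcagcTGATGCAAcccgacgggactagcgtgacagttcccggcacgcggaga
Gars: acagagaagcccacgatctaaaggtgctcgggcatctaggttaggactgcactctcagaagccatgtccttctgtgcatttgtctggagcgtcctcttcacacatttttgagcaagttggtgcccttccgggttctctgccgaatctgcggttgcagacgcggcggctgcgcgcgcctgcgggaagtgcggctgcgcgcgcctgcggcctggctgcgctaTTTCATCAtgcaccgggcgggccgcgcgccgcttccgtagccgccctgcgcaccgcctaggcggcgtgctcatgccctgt
Aars: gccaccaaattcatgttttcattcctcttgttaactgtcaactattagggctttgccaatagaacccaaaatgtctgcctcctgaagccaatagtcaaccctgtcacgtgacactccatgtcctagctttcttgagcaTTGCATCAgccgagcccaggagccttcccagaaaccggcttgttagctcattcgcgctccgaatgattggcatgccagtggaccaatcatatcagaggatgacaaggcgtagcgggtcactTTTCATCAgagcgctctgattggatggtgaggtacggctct
Iars: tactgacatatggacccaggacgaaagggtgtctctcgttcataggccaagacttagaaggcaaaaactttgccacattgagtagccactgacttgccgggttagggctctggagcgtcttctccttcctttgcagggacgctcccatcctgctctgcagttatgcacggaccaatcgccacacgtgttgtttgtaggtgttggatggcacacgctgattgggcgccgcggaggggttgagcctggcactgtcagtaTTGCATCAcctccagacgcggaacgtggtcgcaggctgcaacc
Tars: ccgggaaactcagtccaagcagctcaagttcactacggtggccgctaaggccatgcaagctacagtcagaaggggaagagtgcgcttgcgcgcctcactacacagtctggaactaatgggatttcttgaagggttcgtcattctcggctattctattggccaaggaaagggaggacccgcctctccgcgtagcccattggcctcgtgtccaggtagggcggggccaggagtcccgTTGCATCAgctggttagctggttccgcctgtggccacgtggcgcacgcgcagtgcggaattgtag
Mars: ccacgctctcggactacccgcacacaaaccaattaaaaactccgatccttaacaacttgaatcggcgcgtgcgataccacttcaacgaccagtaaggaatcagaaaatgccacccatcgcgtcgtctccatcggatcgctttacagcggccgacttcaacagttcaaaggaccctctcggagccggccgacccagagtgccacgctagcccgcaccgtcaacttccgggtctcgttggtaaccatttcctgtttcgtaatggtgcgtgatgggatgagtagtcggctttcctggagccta
Qars: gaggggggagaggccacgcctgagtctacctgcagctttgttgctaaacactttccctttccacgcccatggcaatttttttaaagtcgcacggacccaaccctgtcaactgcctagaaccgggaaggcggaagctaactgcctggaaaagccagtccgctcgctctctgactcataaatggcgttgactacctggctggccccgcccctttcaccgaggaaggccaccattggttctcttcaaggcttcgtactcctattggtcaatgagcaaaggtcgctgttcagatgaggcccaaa

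Counted from the gene's start as 1, the core began at position 4 in Yars, at -30 in Gars, at -112 and 10 in Aars, at 8 in Iars and at -15 in Tars. The core of the element bound by NRF1, a factor known for genes of mitochondrial function, was searched as GCGCATGC. It was present in 0 of the 13 cytosolic promoters and in 3 of the 14 mitochondrial ones (Wars2, Rars2 and Vars2), against 2.71% of all promoters. An ETS site, CCGGAAGT, was present in Farsa and Mars of the 13 cytosolic promoters and in Rars2 of the 14 mitochondrial ones, against 3.89% of all promoters. Both strands were searched for each motif, overlaps between motifs were not removed, and a match is a description of letters and not of a bound site.

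Expression was read in FPKM, fragments per gene scaled by gene length and by library depth, so levels of different genes are compared per length. By the spacing of the lowest values, 1 FPKM on a transcript of 1000 bases stood for an estimated 15.7 to 21.8 fragments, depending on the library. All 10 chondrocyte markers were at 1 FPKM or more in the vehicle group, and their summed level was 9290 to 12100 FPKM with bleomycin, 9470 to 12300 FPKM with doxorubicin and 5520 to 5880 FPKM with IL-1β, against 12400 to 16300 FPKM with vehicle. Col2a1 made up most of that sum, averaging 8971 FPKM with vehicle. Prg4 averaged 55.6 FPKM with bleomycin, 97.4 with doxorubicin and 38.1 with IL-1β, against 21.1 with vehicle. Comp averaged 1450 FPKM with bleomycin, 1065 with doxorubicin and 302 with IL-1β, against 934 with vehicle. Cnmd averaged 807 FPKM with bleomycin, 1013 with doxorubicin and 320 with IL-1β, against 953 with vehicle. The other markers of this list averaged lower in each treated group. Among macrophage markers, 5 of 9 (Adgre1, Csf1r, Ptprc, C1qa and C1qb) stayed under 1 FPKM in every library, and the summed level of the 9 was 16.3 to 17.9 FPKM with bleomycin, 19.3 to 24.1 FPKM with doxorubicin and 29.1 to 34.8 FPKM with IL-1β, against 9.10 to 11.1 FPKM with vehicle. An adipocyte list summed to 60.3 to 71.5 FPKM with bleomycin, 135 to 182 FPKM with doxorubicin and 347 to 383 FPKM with IL-1β, against 27.6 to 34.7 FPKM with vehicle. With IL-1β that sum was almost wholly Fabp4, at 346 to 383 FPKM, while Adipoq, Plin1, Cfd and Lep were each under 1 FPKM with IL-1β and with vehicle. Adipoq averaged 4.06 FPKM with bleomycin and 13.9 FPKM with doxorubicin, against 0.104 FPKM with vehicle. All 5 endothelial markers were under 1 FPKM throughout. All 6 genes of a synovial fibroblast and tendon list were at 1 FPKM or more with vehicle. They summed to 87.2 to 128 FPKM with bleomycin, 97.7 to 159 with doxorubicin and 95.3 to 135 with IL-1β, against 83.5 to 119 with vehicle. Among them, Pdpn averaged 42.1 FPKM with bleomycin, 45.2 with doxorubicin and 74.6 with IL-1β, against 23.8 with vehicle. Tnmd averaged 2.37 FPKM with bleomycin, 4.95 with doxorubicin and 2.76 with IL-1β, against 15.9 with vehicle. Osteoblast markers summed to 15.4 to 19.9 FPKM with doxorubicin and 18.0 to 23.1 with IL-1β, against 19.3 to 25.3 with vehicle. The part of these shifts in the results that follow was not tested. The IL-1β libraries stood apart in composition, since the acute-phase gene Saa3 alone took 12.0% to 14.4% of their summed FPKM. Rescaling every library to the same FPKM sum, called TPM scaling here, moved the median log2 difference of all genes to -0.31 in IL-1β against vehicle, against 0.03 as deposited.

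The cytosolic enzymes were lower in all 3 treated groups. Their summed level was 1037, 1053, 1019 and 977 FPKM in the bleomycin libraries, 1032, 1026, 1043 and 1032 FPKM in the doxorubicin libraries and 1155, 1129.8, 1183 and 1173 FPKM in the IL-1β libraries, against 1639, 1615, 1499 and 1553 FPKM in the vehicle libraries. Each treated library lay below each vehicle library, and as deposited the drug libraries lay below the IL-1β libraries. With TPM scaling the drug libraries lay above the IL-1β libraries instead, and each treated library still lay below each vehicle library. As deposited, the 16 mitochondrial genes together summed to 107 ± 4.58 FPKM with bleomycin, 102 ± 3.23 FPKM with doxorubicin and 123 ± 2.78 FPKM with IL-1β, against 116 ± 3.20 FPKM with vehicle (SD, n = 4 each). With TPM scaling the IL-1β sums of these genes lay below the vehicle sums. In bulk RNA, fewer cells of a type and less of a transcript per cell cannot be told apart.

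**Figure D1:**
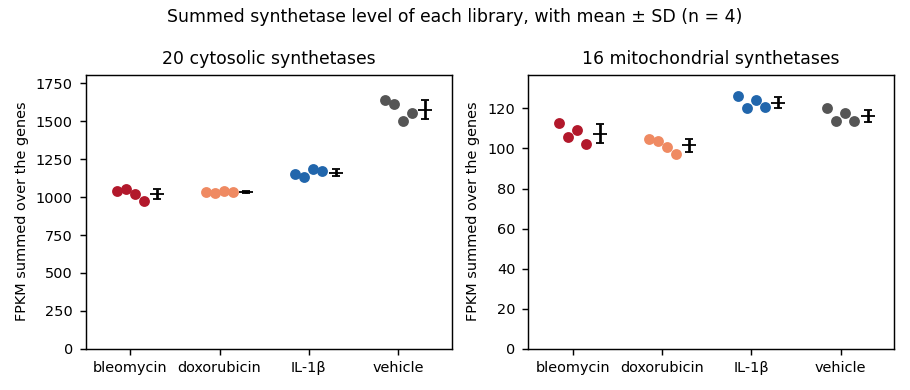
FPKM summed over the 20 cytosolic synthetases (left) and the 16 mitochondrial synthetases (right) in each of the 16 libraries, with mean ± SD of 4 libraries per group; the vertical axis starts at 0. The cytosolic sums lie between 977 and 1053 FPKM with bleomycin, against 1499 to 1639 FPKM with vehicle.

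With bleomycin, 18 of the 20 cytosolic genes fell, 0 rose and 2, Farsa and Qars, did not pass the test, on a log2(FPKM + 1) scale with limma and Benjamini-Hochberg adjustment at 0.05 over all 12976 tested genes. At an unadjusted p under 0.05 there were the same number, 18. In all 18 the 4 bleomycin libraries lay below the 4 vehicle libraries. Across all tested genes 19.0% were called lower, 27.9% were called higher and 16.1% were lower with no overlap between the groups. The median log2 difference of the 20 was -0.63, beside 0.06 for all tested genes. The largest difference was that of Gars, 1.90-fold lower by the ratio of means, followed by Tars at 1.77-fold, Vars and Lars at 1.74-fold each and Nars at 1.73-fold.

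With doxorubicin the count was again 18 of 20 lower and 0 higher, with Wars and Qars the 2 others, and 19 genes had an unadjusted p under 0.05. The background was 22.8% of all tested genes called lower, 25.4% called higher and 19.4% lower with no overlap, and all 18 had no overlap. The median log2 difference was -0.62, beside 0.02 for all tested genes. Vars differed most, 1.96-fold lower, ahead of Gars at 1.83-fold and Lars at 1.79-fold.

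With IL-1β, 18 of 20 fell and 0 rose, with Farsa and Qars the exceptions as with bleomycin, against 18.4% of all tested genes called lower, 24.5% called higher and 15.4% lower with no overlap. The 18 had no overlap with vehicle, and 18 had an unadjusted p under 0.05. The median log2 difference was -0.41, beside 0.03 for all tested genes. With TPM scaling the cytosolic median was -0.79, which is -0.48 relative to the median of all genes. Iars differed most, 1.80-fold lower, and Gars was next at 1.78-fold. The 3 comparisons share the same 4 vehicle libraries, so their likeness is not independent.

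**Figure D2:**
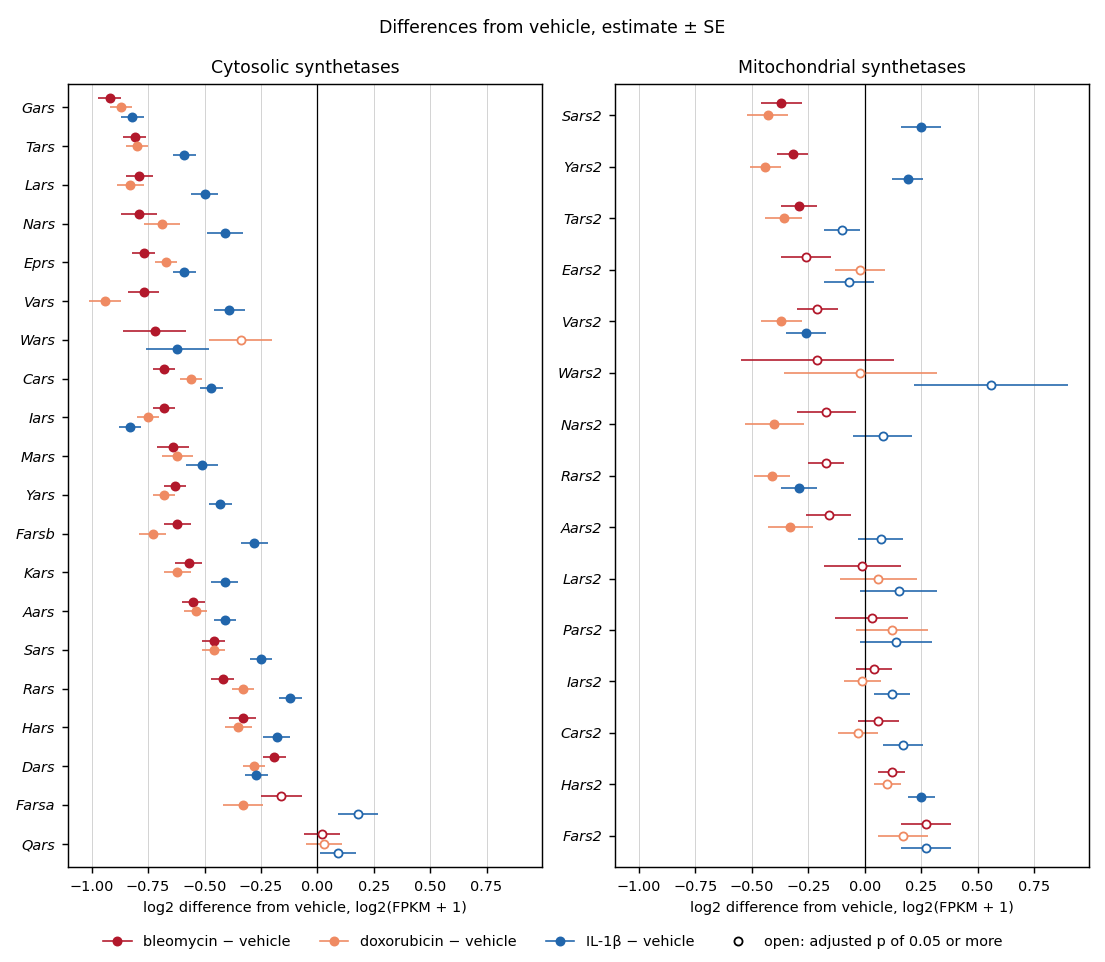
Log2 difference from vehicle with its standard error for each tested cytosolic (left) and mitochondrial (right) synthetase, on the log2(FPKM + 1) scale; colours give bleomycin, doxorubicin and IL-1β, and open circles mark an adjusted p of 0.05 or more. The cytosolic points lie left of 0 in 18 called genes per group, with Qars at 0.02, 0.03 and 0.09.

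Gars (chr6:55038007-55079500 on GRCm38), which encodes the glycine enzyme of both cytosol and mitochondria, was the most abundant synthetase in every group. It had 117, 122, 111 and 107 FPKM in the bleomycin libraries, 118, 124, 119.7 and 113 FPKM in the doxorubicin libraries and 123, 120.1, 122 and 124 FPKM in the IL-1β libraries, against 236, 211, 208 and 215 FPKM in the vehicle libraries. The treated groups overlapped each other and lay well below vehicle, whose lowest library was at 208 FPKM. The log2 differences were -0.92 ± 0.05 (SE) with bleomycin, -0.87 ± 0.05 with doxorubicin and -0.82 ± 0.05 with IL-1β (limma adjusted p = 1.6e-09, 1.68e-09 and 2.19e-09). Kars, the lysine enzyme and the other dual-compartment gene, had 57.9, 58.9, 53.5 and 49.6 FPKM in the bleomycin libraries, 55.1, 50.97, 51.6 and 54.1 FPKM in the doxorubicin libraries and 59.8, 59.5, 62.9 and 62.4 FPKM in the IL-1β libraries, against 87.2, 80.3, 79.3 and 80.6 FPKM in the vehicle libraries. Its groups did not overlap with vehicle either, and its log2 differences were -0.57 ± 0.06 (SE) with bleomycin, -0.62 ± 0.06 with doxorubicin and -0.41 ± 0.06 with IL-1β.

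Eprs, the bifunctional enzyme for glutamate and proline, the amino acid in which collagen is rich, had 71.8, 73.4, 73.6 and 70.2 FPKM in the bleomycin libraries, 72.99, 79.6, 78.01 and 78.1 FPKM in the doxorubicin libraries and 82.3, 81.99, 78.7 and 84.7 FPKM in the IL-1β libraries, against 125, 132, 115 and 124 FPKM in the vehicle libraries. The 4 bleomycin libraries spanned 70.2 to 73.6 FPKM and stood apart from vehicle. The mean was 72.2 ± 1.60 FPKM with bleomycin, 77.2 ± 2.88 with doxorubicin and 81.9 ± 2.47 with IL-1β, against 124 ± 7.16 with vehicle (SD, n = 4 each). The log2 differences were -0.77 ± 0.05 (SE) with bleomycin, -0.67 ± 0.05 with doxorubicin and -0.59 ± 0.05 with IL-1β (limma adjusted p = 5.41e-09, 1.32e-08 and 5.51e-08).

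Mars, which charges the methionine of the initiator tRNA as well as of the elongator tRNA, had 38.8, 40.5, 40.7 and 38.7 FPKM in the bleomycin libraries, 39.6, 41.3, 38.9 and 41.4 FPKM in the doxorubicin libraries and 39.05, 39.2, 50.3 and 45.99 FPKM in the IL-1β libraries, against 62.9, 66.2, 61.4 and 59.2 FPKM in the vehicle libraries. As deposited, the IL-1β libraries were split, replicates 1 and 2 at the level of the drugs and replicates 3 and 4 higher, and all lay below vehicle. The log2 differences were -0.64 ± 0.07 (SE) with bleomycin, -0.62 ± 0.07 with doxorubicin and -0.51 ± 0.07 with IL-1β. Mars overlaps the opposite-strand gene Ddit3, a stress transcription factor, by 68 bases, and whether fragments were counted by strand was not given in the sources used here. Ddit3 averaged 79.6 FPKM with bleomycin and 65.9 FPKM with doxorubicin, against 62.8 FPKM with vehicle, and rose with bleomycin, opposite to Mars. With IL-1β Ddit3 averaged 50.7 FPKM and fell, as Mars did.

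Lars, the leucine enzyme of the multisynthetase complex, had 44.2, 49.7, 51.8 and 46.3 FPKM in the bleomycin libraries, 45.3, 47.8, 50.4 and 43.4 FPKM in the doxorubicin libraries and 61.5, 56.3, 59.9 and 56.7 FPKM in the IL-1β libraries, against 84.1, 85.01, 82.4 and 82.4 FPKM in the vehicle libraries. The vehicle values were tight, and as deposited IL-1β lay between the drugs and vehicle without overlap. With TPM scaling the IL-1β libraries of Lars overlapped with the drug libraries. Its log2 differences were -0.79 ± 0.06 (SE) with bleomycin, -0.83 ± 0.06 with doxorubicin and -0.50 ± 0.06 with IL-1β. Iars, the isoleucine enzyme of the same complex, had 47.2, 49.6, 48.8 and 45.96 FPKM in the bleomycin libraries, 46.5, 48.4, 44.2 and 43.2 FPKM in the doxorubicin libraries and 43.1, 42.4, 42.7 and 43.8 FPKM in the IL-1β libraries, against 81.1, 78.8, 74.1 and 75.5 FPKM in the vehicle libraries. The order was different from that of Lars, since IL-1β had the lowest mean. Its log2 differences were -0.68 ± 0.05 (SE) with bleomycin, -0.75 ± 0.05 with doxorubicin and -0.83 ± 0.05 with IL-1β (limma adjusted p = 1.65e-08, 3.32e-09 and 7.65e-10), and the promoter above holds the CARE core at 8.

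**Figure D3:**
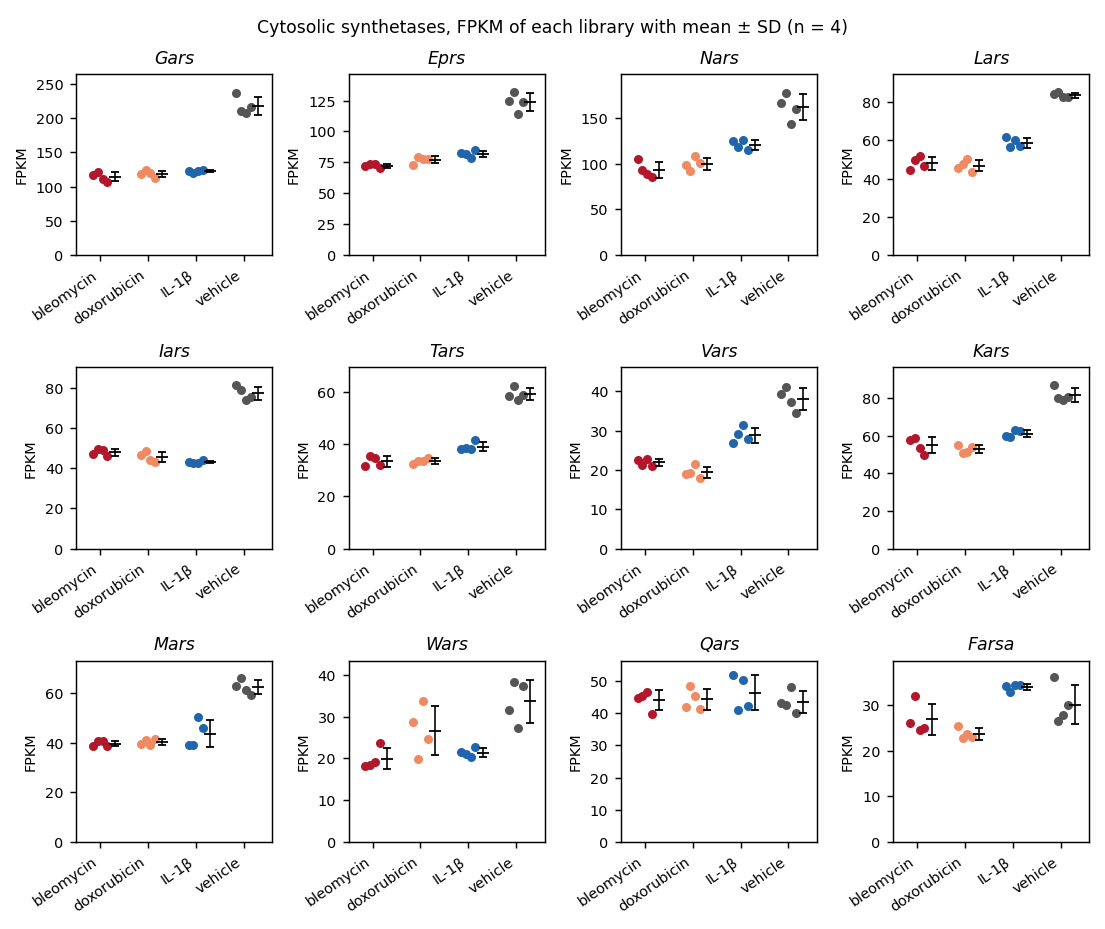
FPKM of 12 cytosolic synthetases in each library of bleomycin, doxorubicin, IL-1β and vehicle, with mean ± SD (n = 4); each vertical axis starts at 0 and has its own range. Gars, Eprs, Lars and Tars show vehicle libraries above every treated library, while those of Qars overlap in all groups.

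The complex enzymes as a class (Eprs, Iars, Lars, Mars, Qars, Rars, Kars and Dars) and the 12 cytosolic genes outside it gave like medians. Of all tested genes 19.0% were called lower with bleomycin, 22.8% with doxorubicin and 18.4% with IL-1β, with medians of 0.06, 0.02 and 0.03. Within the complex 7 of 8 fell in each comparison with vehicle, with median log2 differences of -0.60 with bleomycin, -0.62 with doxorubicin and -0.46 with IL-1β. Outside it 11 of 12 fell in each, with medians of -0.65, -0.62 and -0.41. This split was made after the values were seen, and the difference between the classes was not tested.

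Qars, the glutamine enzyme of the complex, did not pass in any comparison with vehicle. It had 44.7, 45.2, 46.7 and 39.7 FPKM in the bleomycin libraries, 41.9, 48.5, 45.2 and 41.4 FPKM in the doxorubicin libraries and 51.9, 41.1, 50.3 and 42.3 FPKM in the IL-1β libraries, against 43.2, 42.5, 48.05 and 40.1 FPKM in the vehicle libraries. All 4 groups overlapped. Its log2 difference was 0.02 with bleomycin (95% interval -0.16 to 0.20), 0.03 with doxorubicin (-0.15 to 0.20) and 0.09 with IL-1β (-0.09 to 0.27), with limma adjusted p = 0.858, 0.823 and 0.421. With TPM scaling the difference with IL-1β was -0.28 and passed the test (limma adjusted p = 0.00654). Dars and Rars, the aspartate and arginine enzymes of the complex, fell in each treated group. Dars averaged 55.4 FPKM with bleomycin, 52.1 with doxorubicin and 52.4 with IL-1β, against 63.3 with vehicle, with log2 differences of -0.19 ± 0.05 (SE) with bleomycin, -0.28 ± 0.05 with doxorubicin and -0.27 ± 0.05 with IL-1β. Rars averaged 53.9 FPKM with bleomycin, 57.3 with doxorubicin and 66.6 with IL-1β, against 72.5 with vehicle, with log2 differences of -0.42 ± 0.05 (SE) with bleomycin, -0.33 ± 0.05 with doxorubicin and -0.12 ± 0.05 with IL-1β, the last near the threshold (limma adjusted p = 0.0487).

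Outside the complex, Nars, the asparagine enzyme, was the second most abundant synthetase. It had 105, 93.4, 88.5 and 85.3 FPKM in the bleomycin libraries, 98.2, 91.7, 108 and 101 FPKM in the doxorubicin libraries and 124, 118, 126 and 114 FPKM in the IL-1β libraries, against 166, 177, 143 and 159.6 FPKM in the vehicle libraries. As deposited, IL-1β lay between the drug and vehicle groups with no overlap on either side. With TPM scaling the IL-1β libraries overlapped with the drug libraries. Its log2 differences were -0.79 ± 0.08 (SE) with bleomycin, -0.69 ± 0.08 with doxorubicin and -0.41 ± 0.08 with IL-1β. Tars, the threonine enzyme, had 31.4, 35.4, 34.8 and 31.8 FPKM in the bleomycin libraries, 32.2, 33.7, 33.7 and 34.5 FPKM in the doxorubicin libraries and 38.2, 38.3, 38.01 and 41.5 FPKM in the IL-1β libraries, against 58.5, 62.3, 56.6 and 58.9 FPKM in the vehicle libraries, and its log2 differences were -0.81 ± 0.05 (SE) with bleomycin, -0.80 ± 0.05 with doxorubicin and -0.59 ± 0.05 with IL-1β (limma adjusted p = 7.46e-09, 4.78e-09 and 1.51e-07). Vars, the valine enzyme, had 22.6, 21.3, 22.7 and 21.03 FPKM in the bleomycin libraries, 19.1, 19.2, 21.4 and 17.9 FPKM in the doxorubicin libraries and 26.9, 29.2, 31.4 and 27.97 FPKM in the IL-1β libraries, against 39.4, 41.2, 37.3 and 34.6 FPKM in the vehicle libraries. Doxorubicin reached the lowest value of any group in Vars, and the log2 differences were -0.77 ± 0.07 (SE) with bleomycin, -0.94 ± 0.07 with doxorubicin and -0.39 ± 0.07 with IL-1β (limma adjusted p = 1.82e-07, 1.31e-08 and 0.000201).

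Aars and Yars, the alanine and tyrosine enzymes, are the remaining members whose promoters hold the CARE core. Aars had 53.9, 55.6, 55.4 and 53.1 FPKM in the bleomycin libraries, 53.5, 56.3, 53.4 and 56.5 FPKM in the doxorubicin libraries and 56.8, 56.4, 64.5 and 63.6 FPKM in the IL-1β libraries, against 81.99, 80.9, 79.6 and 78.4 FPKM in the vehicle libraries, with log2 differences of -0.55 ± 0.05 (SE) with bleomycin, -0.54 ± 0.05 with doxorubicin and -0.41 ± 0.05 with IL-1β. Yars had 32.5, 33.6, 35.1 and 32.2 FPKM in the bleomycin libraries, 32.6, 33.9, 31.8 and 30.4 FPKM in the doxorubicin libraries and 37.5, 36.9, 41.1 and 37.8 FPKM in the IL-1β libraries, against 53.03, 53.6, 50.2 and 51.7 FPKM in the vehicle libraries, with log2 differences of -0.63 ± 0.05 (SE) with bleomycin, -0.68 ± 0.05 with doxorubicin and -0.43 ± 0.05 with IL-1β. Neither gene had a treated library that reached a vehicle library. Aars shares 1326 bases with the same-strand gene Exosc6, so its level is uncertain where the counting could split them. Cars, the cysteine enzyme, averaged 42.5 FPKM with bleomycin, 46.3 with doxorubicin and 49.2 with IL-1β, against 68.7 with vehicle. Sars, the serine enzyme, averaged 93.00 FPKM with bleomycin, 92.6 with doxorubicin and 108 with IL-1β, against 128 with vehicle. Hars, the histidine enzyme, averaged 45.3 FPKM with bleomycin, 44.5 with doxorubicin and 50.2 with IL-1β, against 57.02 with vehicle. Hars shares 198 bases with the opposite-strand gene Hars2, which was higher with IL-1β as deposited and not with TPM scaling.

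Phenylalanyl-tRNA synthetase is built from 2 kinds of subunit, Farsa (alpha) and Farsb (beta), and the 2 transcripts were not called alike. Farsa had 26.1, 31.9, 24.5 and 24.9 FPKM in the bleomycin libraries, 25.5, 22.7, 23.6 and 22.97 FPKM in the doxorubicin libraries and 34.1, 32.8, 34.4 and 34.4 FPKM in the IL-1β libraries, against 36.1, 26.5, 27.8 and 30.00 FPKM in the vehicle libraries. It fell with doxorubicin by 0.33 on the log2 scale (limma adjusted p = 0.00693), while its difference was -0.16 with bleomycin (95% interval -0.35 to 0.03) and 0.18 with IL-1β (-0.01 to 0.37), neither past the test. Farsb had 27.6, 26.4, 26.6 and 27.3 FPKM in the bleomycin libraries, 26.2, 22.8, 26.2 and 25.3 FPKM in the doxorubicin libraries and 33.6, 37.4, 32.4 and 34.5 FPKM in the IL-1β libraries, against 44.5, 41.1, 37.9 and 45.4 FPKM in the vehicle libraries. It fell in each, with log2 differences of -0.62 ± 0.06 (SE) with bleomycin, -0.73 ± 0.06 with doxorubicin and -0.28 ± 0.06 with IL-1β. The difference between the subunits was not tested.

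Wars, the tryptophan enzyme, whose human counterpart is known to be induced by interferon-gamma, had 18.3, 18.5, 19.2 and 23.8 FPKM in the bleomycin libraries, 28.7, 19.7, 33.7 and 24.5 FPKM in the doxorubicin libraries and 21.6, 20.98, 20.2 and 22.7 FPKM in the IL-1β libraries, against 31.6, 38.2, 27.4 and 37.4 FPKM in the vehicle libraries. The doxorubicin libraries were widely spread, and 2 of them lay inside the vehicle range. Its log2 difference was -0.72 with bleomycin (limma adjusted p = 0.000426) and -0.62 with IL-1β (limma adjusted p = 0.00155). With doxorubicin it was -0.34 (95% interval -0.63 to -0.05, limma adjusted p = 0.0523), just outside the threshold. It passed without doxorubicin replicate 3, at -0.45, without vehicle replicate 3, at -0.43, without bleomycin replicate 4, at -0.34, and with median-of-ratios scaling, at -0.36.

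Between the drugs, no synthetase passed the test, against 4.18% of all tested genes called lower, 5.85% called higher and 3.88% lower with no overlap in bleomycin against doxorubicin. At an unadjusted p under 0.05 there were 3 cytosolic and 2 mitochondrial genes, and without doxorubicin replicate 2 limma called 1 cytosolic gene lower. The 95% intervals of the 20 cytosolic differences reached from -0.67 to 0.36. Wars came closest among them, with 19.9 FPKM in bleomycin and 26.7 FPKM in doxorubicin, a log2 difference of -0.38 (95% interval -0.67 to -0.09, limma adjusted p = 0.0895). Of the mitochondrial genes Rars2 came closest, with 14.9, 12.2, 12.4 and 12.6 FPKM in the bleomycin libraries and 11.9, 10.04, 11.9 and 9.78 FPKM in the doxorubicin libraries. Those libraries did not overlap, but the difference of 0.24 (95% interval 0.07 to 0.41) had a limma adjusted p of 0.0731.

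Both drug groups together were also set against IL-1β, the acute inflammatory stress of the study. As deposited, 14 of the 20 cytosolic genes were lower with the drugs and 1, Iars, was higher, while 29.5% of all tested genes were called lower, 28.5% higher and 18.7% lower with no overlap; 10 of the 14 had no overlap. This direction depends on the scaling: with TPM scaling 15 were higher and 0 lower, against 59.3% of all tested genes called higher and 11.5% lower. That scaling moved the median of all genes to 0.34, and relative to it the cytosolic median was -0.14, beside -0.17 as deposited with a median of 0.00 for all genes. Vars had the largest difference, 21.9 FPKM with bleomycin and 19.4 with doxorubicin against 28.9 with IL-1β, -0.47 ± 0.06 (SE) on the log2 scale and -0.10 with TPM scaling. Farsa was at -0.42 ± 0.08 and Farsb at -0.39 ± 0.06 as deposited, and at -0.05 and -0.02 with TPM scaling, where the 3 no longer passed.

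The mitochondrial enzymes were lower in level and less uniform. Their group means ran from 0.781 FPKM (Mars2) to 13.8 FPKM (Hars2) with bleomycin, from 0.645 (Mars2) to 13.7 (Hars2) with doxorubicin and from 0.751 (Mars2) to 15.2 (Hars2) with IL-1β, against 0.847 (Mars2) to 14.8 (Rars2) with vehicle. Of the 16, 15 were tested. Mars2, the mitochondrial methionine enzyme, was under 1 FPKM in all 16 libraries and stayed out of the tests, with 0.701 to 0.903 FPKM in bleomycin, 0.604 to 0.728 in doxorubicin and 0.659 to 0.839 in IL-1β, against 0.740 to 0.935 in vehicle. At the depth given above, the precision of such low values is limited.

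With bleomycin 3 of the 15 tested fell (Yars2, Sars2 and Tars2) and 0 rose, a share near the background of 19.0% called lower. With median-of-ratios scaling 6 fell, against 23.2% of all tested genes called lower. As deposited, 6 had an unadjusted p under 0.05. The median log2 difference was -0.17. With doxorubicin 7 of 15 fell (Yars2, Sars2, Rars2, Nars2, Vars2, Tars2 and Aars2) and 0 rose, against 22.8% of all tested genes called lower and 25.4% higher. All 7 had no overlap with vehicle, against 19.4% of all tested genes lower with no overlap. The median there was -0.03, with the other 8 between -0.03 and 0.17. With IL-1β, as deposited, 3 rose (Hars2, Sars2 and Yars2) and 2 fell (Rars2 and Vars2), against 24.5% of all tested genes called higher and 18.4% lower, so neither count was above the share of genes in general. With TPM scaling 0 rose and 6 fell, against 10.1% of all tested genes called higher and 52.6% lower. The IL-1β median was 0.14 as deposited, and with TPM scaling it was -0.18, which is 0.13 relative to the median of all genes.

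Yars2, the mitochondrial tyrosine enzyme, had 7.60, 7.86, 8.19 and 7.14 FPKM in the bleomycin libraries, 6.72, 6.63, 7.99 and 6.79 FPKM in the doxorubicin libraries and 12.3, 11.6, 10.7 and 11.1 FPKM in the IL-1β libraries, against 9.63, 11.2, 9.23 and 9.49 FPKM in the vehicle libraries. Both drug groups lay below vehicle, and the IL-1β libraries overlapped with it. Its log2 differences were -0.32 ± 0.07 (SE) with bleomycin, -0.44 ± 0.07 with doxorubicin and 0.19 ± 0.07 with IL-1β (limma adjusted p = 0.00202, 0.000129 and 0.0468). Sars2, the serine enzyme, had 4.71, 4.12, 4.07 and 4.03 FPKM in the bleomycin libraries, 4.16, 3.80, 3.93 and 4.21 FPKM in the doxorubicin libraries and 7.39, 6.59, 6.88 and 7.31 FPKM in the IL-1β libraries, against 6.09, 6.61, 4.56 and 5.99 FPKM in the vehicle libraries. Vehicle replicate 3 lay inside the bleomycin range and the other vehicle libraries above it, while the doxorubicin libraries were all below vehicle. Its log2 differences were -0.37 ± 0.09 (SE) with bleomycin, -0.43 ± 0.09 with doxorubicin and 0.25 ± 0.09 with IL-1β (limma adjusted p = 0.00218, 0.000618 and 0.0286). Without IL-1β replicate 1, 1 mitochondrial gene was called higher with IL-1β, against 3 with all libraries.

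Rars2, the arginine enzyme, had 14.9, 12.2, 12.4 and 12.6 FPKM in the bleomycin libraries, 11.9, 10.04, 11.9 and 9.78 FPKM in the doxorubicin libraries and 11.7, 11.8, 11.5 and 12.5 FPKM in the IL-1β libraries, against 16.1, 13.97, 13.5 and 15.5 FPKM in the vehicle libraries. It fell with doxorubicin and IL-1β, by 0.41 and 0.29 on the log2 scale (limma adjusted p = 0.00057 and 0.00854), and its bleomycin difference was -0.17 (95% interval -0.34 to 0.00). Tars2, the threonine enzyme, had 11.02, 11.8, 11.5 and 9.92 FPKM in the bleomycin libraries, 10.6, 10.5, 11.3 and 9.36 FPKM in the doxorubicin libraries and 13.7, 11.4, 13.7 and 12.1 FPKM in the IL-1β libraries, against 15.8, 12.7, 13.8 and 12.8 FPKM in the vehicle libraries. Its 2 drug groups lay below vehicle, with log2 differences of -0.29 ± 0.08 (SE) and -0.36 ± 0.08 for bleomycin and doxorubicin. Hars2, the histidine enzyme, had 13.8, 12.8, 14.02 and 14.5 FPKM in the bleomycin libraries, 14.9, 14.2, 12.6 and 12.9 FPKM in the doxorubicin libraries and 15.6, 14.2, 14.9 and 16.1 FPKM in the IL-1β libraries, against 12.7, 12.1, 12.1 and 13.5 FPKM in the vehicle libraries. Its IL-1β libraries lay above the vehicle libraries, with a log2 difference of 0.25 ± 0.06 (SE, limma adjusted p = 0.00499) as deposited and -0.10 with TPM scaling.

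**Figure D4:**
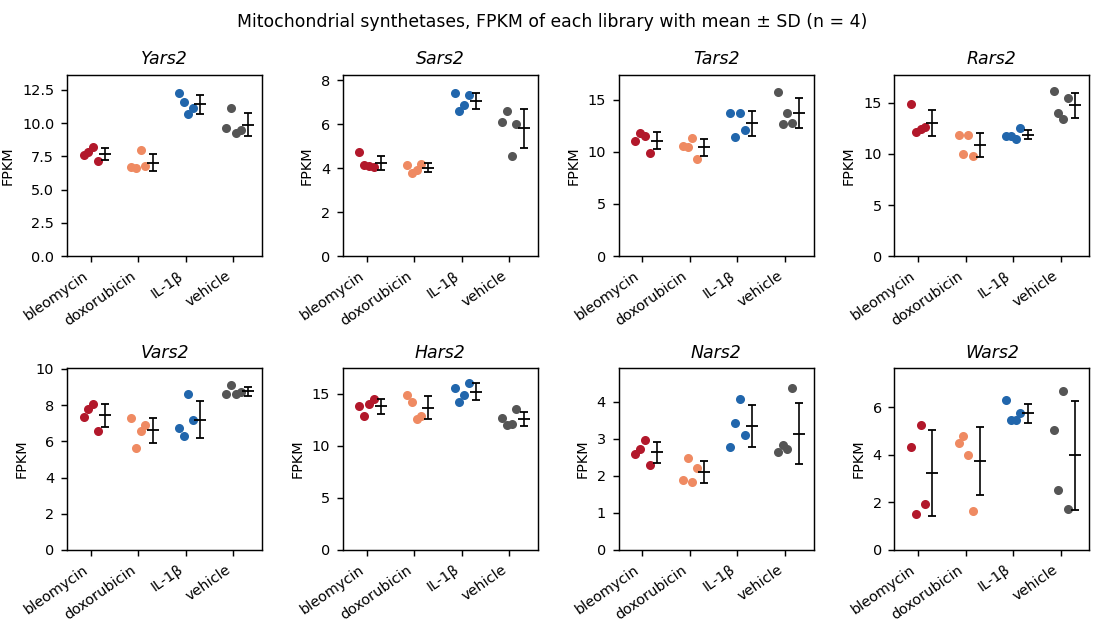
FPKM of 8 mitochondrial synthetases in each library of bleomycin, doxorubicin, IL-1β and vehicle, with mean ± SD (n = 4); each vertical axis starts at 0 and has its own range. Yars2 averages 7.70 FPKM with bleomycin and 7.03 with doxorubicin, against 9.88 with vehicle, and Wars2 spans 1.72 to 6.68 FPKM within vehicle.

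The other mitochondrial genes gave smaller or less precise differences. Vars2, the valine enzyme, averaged 7.43 FPKM with bleomycin, 6.60 with doxorubicin and 7.20 with IL-1β, against 8.77 with vehicle, and fell with doxorubicin and IL-1β. Aars2, the alanine enzyme, averaged 4.40 FPKM with bleomycin, 3.81 with doxorubicin and 5.40 with IL-1β, against 5.03 with vehicle, and Nars2, the asparagine enzyme, averaged 2.64 FPKM with bleomycin, 2.11 with doxorubicin and 3.34 with IL-1β, against 3.14 with vehicle; both fell with doxorubicin. Wars2, the tryptophan enzyme, ranged from 1.501 to 5.24 FPKM within bleomycin, and its log2 difference with IL-1β of 0.56 had a 95% interval of -0.16 to 1.28. Cars2, Ears2, Fars2, Iars2, Lars2 and Pars2 did not pass in any comparison with vehicle, and they included the scarcest tested member, Pars2 (the proline enzyme, mean 1.70 FPKM with vehicle), as well as Iars2 (the isoleucine enzyme, 10.6 to 11.6 FPKM with vehicle). Cars2, Ears2, Fars2 and Iars2 each overlap an opposite-strand gene of more than 5 FPKM, so their values are uncertain if fragments were counted without strand.

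Against IL-1β, both drugs together had 6 of 15 mitochondrial genes lower (Sars2, Yars2, Nars2, Aars2, Tars2 and Hars2) and 0 higher as deposited, against 29.5% of all tested genes called lower and 28.5% higher. TPM scaling gave 2 lower and 7 higher, against 11.5% of all tested genes lower and 59.3% higher. Sars2 averaged 4.23 FPKM with bleomycin and 4.02 with doxorubicin against 7.04 with IL-1β, a log2 difference of -0.65 ± 0.07 (SE, limma adjusted p = 1.63e-06). Yars2 was at -0.57 ± 0.06 (limma adjusted p = 1.21e-06) and Nars2 at -0.36 ± 0.11 (limma adjusted p = 0.00961). Nars2 did not pass with TPM scaling, where its difference was -0.10.

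For 13 pairs of genes whose symbols differ only by the suffix 2, the ratio of the 2 mean levels per length was taken in each group; phenylalanine, with 2 cytosolic subunit genes beside Fars2, was not among them. The median ratio of cytosolic over mitochondrial level was 4.48 with bleomycin, 5.26 with doxorubicin and 4.76 with IL-1β, against 7.55 with vehicle. It was below the vehicle ratio in 13 of 13 pairs with bleomycin, in 11 with doxorubicin and in 12 with IL-1β. It was above it in Rars and Sars with doxorubicin and in Rars with IL-1β. In Lars over Lars2 it was 12.8 with bleomycin, 11.5 with doxorubicin and 13.8 with IL-1β, against 22.0 with vehicle. In Iars over Iars2 it was 4.24 with bleomycin, 4.18 with doxorubicin and 3.55 with IL-1β, against 7.03 with vehicle. Rars over Rars2 was at 4.14 with bleomycin, 5.26 with doxorubicin and 5.61 with IL-1β, against 4.92 with vehicle. Scaling a library multiplies both genes of a pair alike. The ratio shows unequal change of the pair, and it was not tested.

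The proteins that work beside the synthetases were read from lists of known partners. The 3 scaffold genes of the multisynthetase complex fell with each drug, by 0.44 to 0.61 on the log2 scale, and did not pass with IL-1β, where their 95% intervals reached from -0.10 to 0.22 and 0 had an unadjusted p under 0.05. Of all tested genes 19.0% were called lower with bleomycin, 22.8% with doxorubicin and 18.4% with IL-1β. With TPM scaling the 3 scaffold genes were lower with IL-1β too, as were 52.6% of all tested genes. Aimp2 had 33.3, 33.99, 29.2 and 31.3 FPKM in the bleomycin libraries, 30.6, 28.4, 29.1 and 28.1 FPKM in the doxorubicin libraries and 45.03, 41.1, 52.02 and 47.7 FPKM in the IL-1β libraries, against 45.9, 46.8, 38.9 and 46.1 FPKM in the vehicle libraries. Eef1e1 had 14.7, 14.4, 12.6 and 13.9 FPKM in the bleomycin libraries, 14.4, 12.8, 13.7 and 13.02 FPKM in the doxorubicin libraries and 20.6, 24.3, 22.3 and 20.3 FPKM in the IL-1β libraries, against 22.1, 22.7, 19.2 and 20.3 FPKM in the vehicle libraries. Against IL-1β both drugs together were lower in 3 of 3 under each scaling, with differences of -0.59 ± 0.07 (SE) in Aimp2 and -0.64 ± 0.06 in Eef1e1 as deposited. Of all tested genes 29.5% were lower there as deposited, 29.4% with median-of-ratios scaling and 11.5% with TPM scaling. Under IL-1β the enzymes of the complex and its scaffold thus gave different counts as deposited, 7 of 8 and 0 of 3 lower, and the difference between them was not tested.

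Of 27 genes listed for the ATF4 pathway and the amino acid response, 26 were tested. With bleomycin 17 fell and 2 rose, with doxorubicin 19 fell and 0 rose, and with IL-1β 18 fell and 4 rose. In the same order 19.0%, 22.8% and 18.4% of all tested genes were called lower and 27.9%, 25.4% and 24.5% higher. With median-of-ratios scaling 18 fell and 1 rose with bleomycin, against 23.2% of all tested genes lower and 23.2% higher. With TPM scaling 22 fell and 3 rose with IL-1β, against 52.6% of all tested genes called lower and 10.1% higher. Slc7a5, the light chain of the leucine and large neutral amino acid transporter, had 28.5, 29.5, 33.4 and 27.5 FPKM in the bleomycin libraries, 25.9, 26.8, 30.6 and 22.7 FPKM in the doxorubicin libraries and 31.4, 30.4, 33.1 and 34.5 FPKM in the IL-1β libraries, against 79.3, 75.6, 78.4 and 76.3 FPKM in the vehicle libraries. It stood apart from vehicle in every treated group, with log2 differences of -1.36 ± 0.08 (SE) with bleomycin, -1.52 ± 0.08 with doxorubicin and -1.24 ± 0.08 with IL-1β. Cth, cystathionine gamma-lyase of the transsulfuration pathway, had 10.1, 10.3, 10.4 and 8.95 FPKM in the bleomycin libraries, 11.5, 12.3, 13.7 and 10.7 FPKM in the doxorubicin libraries and 29.9, 28.2, 30.8 and 34.7 FPKM in the IL-1β libraries, against 40.3, 36.5, 37.5 and 39.6 FPKM in the vehicle libraries. The drugs lay far below IL-1β and vehicle, and the log2 differences were -1.85 ± 0.08 (SE) with bleomycin, -1.60 ± 0.08 with doxorubicin and -0.31 ± 0.08 with IL-1β.

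The genes that moved against the rest of that list were named too. Cebpb, a transcription factor of inflammation and partner of ATF4, had 15.8, 15.3, 19.96 and 13.4 FPKM in the bleomycin libraries, 18.2, 15.3, 17.3 and 21.1 FPKM in the doxorubicin libraries and 82.8, 66.7, 98.5 and 69.8 FPKM in the IL-1β libraries, against 20.5, 14.6, 25.9 and 15.5 FPKM in the vehicle libraries. It rose 4.15-fold with IL-1β (log2 difference 2.02 ± 0.17 (SE), limma adjusted p = 6.45e-08). Slc7a11, the cystine transporter, rose with IL-1β, where Atf3 and Ddit4, 2 stress-induced genes, rose as well. With bleomycin the 2 that rose were Ddit3 and Sesn2, a regulator of mTORC1. These, and the next 2 genes, were chosen after their values were seen. Atf4 itself had 135, 153, 203 and 154 FPKM in the bleomycin libraries, 172, 127, 171 and 171 FPKM in the doxorubicin libraries and 231, 177, 238 and 227 FPKM in the IL-1β libraries, against 223, 272, 223 and 266 FPKM in the vehicle libraries, and it fell with both drugs (-0.62 ± 0.13 (SE) and -0.62 ± 0.13), while its difference with IL-1β was -0.18 (95% interval -0.46 to 0.10). Asns, asparagine synthetase, which makes the amino acid that Nars charges, had 71.9, 76.9, 74.3 and 74.1 FPKM in the bleomycin libraries, 77.01, 80.6, 78.1 and 76.1 FPKM in the doxorubicin libraries and 96.2, 92.6, 100.5 and 100.5 FPKM in the IL-1β libraries, against 155, 148, 141 and 132 FPKM in the vehicle libraries, with log2 differences of -0.94 ± 0.05 (SE) with bleomycin, -0.88 ± 0.05 with doxorubicin and -0.56 ± 0.05 with IL-1β.

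**Figure D5:**
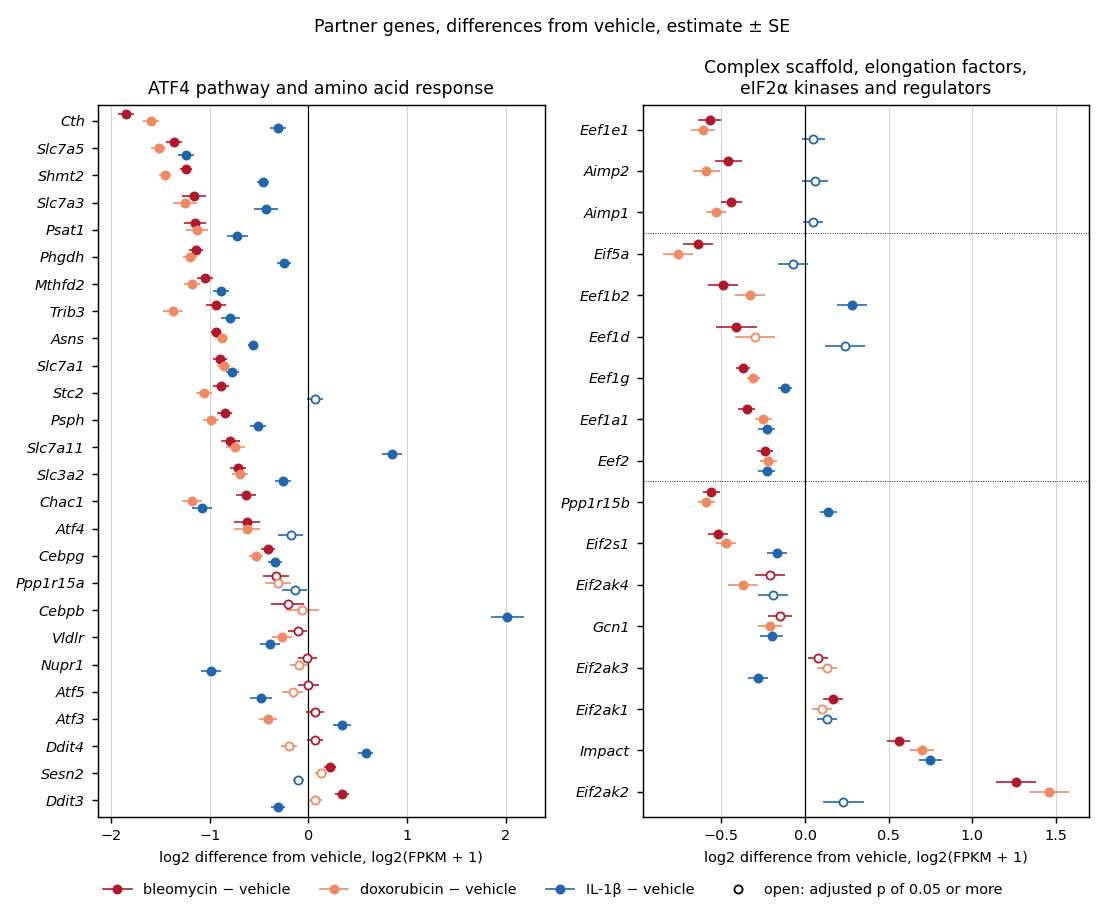
Log2 difference from vehicle with its standard error for 26 genes of the ATF4 pathway and amino acid response (left) and for scaffold genes, elongation factors, and eIF2α kinases and regulators (right), on the log2(FPKM + 1) scale; open circles mark an adjusted p of 0.05 or more. Slc7a5 lies at -1.36, -1.52 and -1.24 for bleomycin, doxorubicin and IL-1β, and Cebpb at 2.02 for IL-1β.

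The kinases and regulators of eIF2α, 8 genes, moved in both directions: 3 rose and 2 fell with bleomycin, 2 rose and 4 fell with doxorubicin, and 2 rose and 3 fell with IL-1β, against 27.9%, 25.4% and 24.5% of all tested genes called higher and 19.0%, 22.8% and 18.4% lower. With median-of-ratios scaling 2 rose and 4 fell with bleomycin, and 1 rose and 3 fell with IL-1β. Under that scaling 23.2% of all tested genes were higher and 23.2% lower with bleomycin, and 21.8% and 21.9% with IL-1β. With TPM scaling 1 rose and 6 fell with IL-1β, against 10.1% of all tested genes called higher and 52.6% lower. Eif2ak2, the kinase PKR that responds to double-stranded RNA, had 16.1, 15.2, 15.5 and 20.03 FPKM in the bleomycin libraries, 17.8, 20.3, 18.4 and 20.5 FPKM in the doxorubicin libraries and 8.47, 8.09, 6.59 and 7.39 FPKM in the IL-1β libraries, against 6.12, 6.88, 4.83 and 7.86 FPKM in the vehicle libraries. The drug libraries were all above vehicle, with log2 differences of 1.26 ± 0.12 (SE) and 1.46 ± 0.12 for bleomycin and doxorubicin, and IL-1β overlapped with vehicle. Impact, which holds back the amino acid sensor kinase GCN2, had 36.8, 37.8, 34.2 and 40.8 FPKM in the bleomycin libraries, 41.4, 42.7, 41.6 and 38.8 FPKM in the doxorubicin libraries and 45.8, 45.2, 36.8 and 43.5 FPKM in the IL-1β libraries, against 25.04, 25.3, 24.4 and 24.97 FPKM in the vehicle libraries. It rose in every treated group, with log2 differences of 0.56 ± 0.07 (SE) with bleomycin, 0.70 ± 0.07 with doxorubicin and 0.75 ± 0.07 with IL-1β. Ppp1r15b, a cofactor of the eIF2α phosphatase, fell with both drugs (-0.56 and -0.59), and Eif2ak3, the kinase PERK of the endoplasmic reticulum, fell with IL-1β (-0.28).

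Of 6 cytosolic elongation factors, which carry charged tRNA to the ribosome or move it on, 6 fell with bleomycin and 5 with doxorubicin. Of all tested genes 19.0% and 22.8% were called lower in these comparisons. With IL-1β 3 fell and 1 rose, against 18.4% lower and 24.5% higher over all tested genes. With TPM scaling 4 fell and 0 rose, against 52.6% lower and 10.1% higher. Eif5a, which helps ribosomes past runs of proline, averaged 341 FPKM with bleomycin, 311 with doxorubicin and 506 with IL-1β, against 528 with vehicle. Eef1b2, an exchange factor of eEF1A, averaged 345 FPKM with bleomycin, 384 with doxorubicin and 589 with IL-1β, against 484 with vehicle. Eef2, the translocase, fell with IL-1β by 0.23 on the log2 scale.

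In the mitochondrion, 13 translation factors and amidotransferase subunits gave 3 lower with bleomycin, 4 lower with doxorubicin, and 1 lower and 1 higher with IL-1β. The shares of all tested genes called lower, 19.0%, 22.8% and 18.4%, were not far from the first 2 of these counts. With TPM scaling 8 of the 13 were lower with IL-1β and 0 higher, against 52.6% of all tested genes lower and 10.1% higher. Tsfm, the mitochondrial EF-Ts, averaged 16.4 FPKM with bleomycin, 15.8 with doxorubicin and 20.8 with IL-1β, against 20.01 with vehicle, and it fell with both drugs. Tufm, the mitochondrial EF-Tu, fell with IL-1β by 0.17 on the log2 scale. Mitochondria have no glutamine enzyme of their own in this list: glutamine tRNA is first charged with glutamate by Ears2 and then converted by an amidotransferase of Qrsl1, Gatb and Gatc. Qrsl1 fell with bleomycin and doxorubicin, by 0.20 and 0.29 on the log2 scale. Gatb had 4.39, 3.99, 4.32 and 4.28 FPKM in the bleomycin libraries, 3.76, 3.62, 4.17 and 5.30 FPKM in the doxorubicin libraries and 7.41, 7.41, 7.19 and 7.74 FPKM in the IL-1β libraries, against 5.66, 4.26, 4.20 and 5.37 FPKM in the vehicle libraries. It rose with IL-1β as deposited, with a log2 difference of 0.53 ± 0.10 (SE), and was not called higher with TPM scaling.

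Of 17 genes for the maturation and transport of tRNA, 6 fell with bleomycin, 6 with doxorubicin and 3 with IL-1β, against 19.0%, 22.8% and 18.4% of all tested genes, so the IL-1β count was at the background. With IL-1β, median-of-ratios scaling gave 5 lower and 2 higher, against 21.9% and 21.8% of all tested genes. TPM scaling gave 11 lower, where 52.6% of all tested genes were called lower. With bleomycin TPM scaling gave 4 lower, against 18.2% of all tested genes. Xpot, the exporter of tRNA from the nucleus, had 34.5, 32.8, 36.1 and 33.9 FPKM in the bleomycin libraries, 31.4, 34.6, 33.5 and 29.9 FPKM in the doxorubicin libraries and 38.1, 37.9, 40.5 and 41.8 FPKM in the IL-1β libraries, against 54.4, 49.9, 50.6 and 51.6 FPKM in the vehicle libraries. It stood below vehicle in every treated group, with log2 differences of -0.58 ± 0.06 (SE) with bleomycin, -0.66 ± 0.06 with doxorubicin and -0.38 ± 0.06 with IL-1β. Pop1, a subunit of RNase P, fell with both drugs (-0.46 and -0.71). With IL-1β 3 rose as deposited (Hsd17b10, Tsen54 and Rpp38) and 0 with TPM scaling, against 24.5% and 10.1% of all tested genes called higher. Tsen54, of the tRNA splicing endonuclease, was at 0.50, and Hsd17b10, a subunit of mitochondrial RNase P, was at 0.45.

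Among 5 proteins that remove wrongly charged amino acids, 2 fell with bleomycin, and 2 fell and 1 rose with doxorubicin, against 19.0% lower with bleomycin and 22.8% lower and 25.4% higher with doxorubicin over all tested genes. None (0) passed with IL-1β, where 0 had an unadjusted p under 0.05. TPM scaling gave 3 lower there, against 52.6% of all tested genes. Aarsd1, which clears serine and glycine from alanine tRNA, averaged 9.57 FPKM with bleomycin, 7.39 with doxorubicin and 10.5 with IL-1β, against 12.1 with vehicle. It fell with bleomycin by 0.31 and with doxorubicin by 0.64 on the log2 scale. Dtd1, a deacylase of D-amino acids, fell with bleomycin by 0.30. Ankrd16, which assists the proofreading of Aars, averaged 10.99 FPKM with bleomycin, 14.7 with doxorubicin and 10.3 with IL-1β, against 10.7 with vehicle, and rose with doxorubicin (0.44).

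Between the drugs, 5 genes of the ATF4 list were higher with bleomycin than with doxorubicin (Atf3, Ddit3, Trib3, Chac1 and Shmt2) and 0 were lower, against 5.85% of all tested genes called higher and 4.18% lower. With median-of-ratios scaling 3 were higher and 1 lower, against 3.34% of all tested genes higher and 5.28% lower. Ddit3 had 73.5, 84.1, 85.4 and 75.5 FPKM in the bleomycin libraries and 66.6, 66.4, 64.9 and 65.6 FPKM in the doxorubicin libraries, which did not overlap. Its log2 difference was 0.27 ± 0.07 (SE, limma adjusted p = 0.0275). Of the other lists, Aarsd1 alone passed as deposited, at 0.33 ± 0.09, and with median-of-ratios scaling its list had 0 higher and 1 lower. Against IL-1β, both drugs together had 17 of the 26 lower and 4 higher as deposited, against 29.5% of all tested genes called lower and 28.5% higher. With TPM scaling 9 were lower and 9 higher, against 11.5% of all tested genes lower and 59.3% higher. As deposited, Cth was at -1.42 ± 0.07 and Slc7a11 at -1.61 ± 0.08 on the log2 scale there, both chosen after their values were seen. Slc7a11 had 0.846, 0.779, 1.07 and 1.03 FPKM with bleomycin and 1.28, 0.936, 1.10 and 0.725 FPKM with doxorubicin, against 4.64, 5.67, 4.89 and 4.90 FPKM with IL-1β. In the same comparison 8 of the 17 tRNA maturation genes were lower and 0 higher as deposited, against 29.5% of all tested genes lower and 28.5% higher. TPM scaling gave 2 lower and 9 higher, against 11.5% of all tested genes lower and 59.3% higher, so the direction for this list depends on the scaling.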

How the data were processed

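Stranded mRNA libraries of 16 chondrocyte samples were deposited as 1 table each, in FPKM values computed by the authors. The submitters' processing notes name Trimmomatic, STAR and the build GRCm38, without versions. The tool and annotation behind FPKM are not given in the sources used here. Depth was estimated from the spacing of low FPKM values.

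Groups followed the labels. Genes at 1 FPKM or more in at least 4 of 16 libraries (12976) were tested on log2(FPKM + 1) in 1 limma fit over all 4 groups (R 4.3.3, limma 3.58.1), with Benjamini-Hochberg adjustment over all tested genes and a threshold of 0.05; log2 differences on that scale understate changes of low genes. The fit was tested on simulated data with 200 changed genes. Tables were made in pandas 2.3.3 with numpy 2.4.6 under Python 3.11.15, and plots in matplotlib 3.10.9. Coordinates are those of GENCODE M21, where 35 of 36 members had the same identifier and version; Yars had none there. Promoters are from RefSeq.

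Alternatives were median-of-ratios scaling, TPM scaling, a pseudocount of 0.1, no filter, a replicate block and each library left out. Members given in full were Eprs, Gars, Kars, Qars, Wars and Mars, and in each comparison with vehicle the 3 of each class with the largest called difference and no overlap. In the other comparisons they were the 3 of each class with the largest called difference, and from each partner list the 2 with the largest. Aars, Yars, Farsa and Farsb were added to show a promoter or a subunit pair. Members and lists were chosen with earlier results of these data known.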

Additional observations from a re-analysis of the deposited data

Results flagged for a closer look

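In 7 of 144 groups of 4 libraries examined (36 genes in 4 groups), the highest or lowest library lay farther from the others than Dixon's 95% critical value allows; chance flags about 1 in 20. Low libraries were bleomycin replicate 3 in Dars, at 52.1 FPKM against 56.1 to 56.8 FPKM in the others, IL-1β replicate 2 in Farsa, at 32.8 FPKM against 34.1 to 34.4 FPKM, and IL-1β replicate 2 in Rars, at 62.5 FPKM against 67.8 to 68.0 FPKM. High libraries were IL-1β replicate 4 in Tars, at 41.5 FPKM against 38.0 to 38.3 FPKM, and bleomycin replicate 1 in Sars2, at 4.71 FPKM against 4.03 to 4.12 FPKM. Doxorubicin replicate 3 was high in Yars2, at 7.99 FPKM against 6.63 to 6.79 FPKM, and vehicle replicate 4 was high in Nars2, at 4.37 FPKM against 2.64 to 2.83 FPKM.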

How the results depend on the processing

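Of 756 values of 36 gene results under 21 alternatives, 741 kept their direction and their side of the threshold, 4 lost it, 4 gained it and 7 changed sign; of 420 counts, 23 moved by over 1.5 times. The changes of sign were in Qars and Hars2. Qars was at -0.05 in bleomycin against vehicle with median-of-ratios scaling, at -0.01 and -0.02 without bleomycin replicate 3 and vehicle replicate 4, at -0.02 and -0.01 in doxorubicin against vehicle without doxorubicin replicate 2 and vehicle replicate 4, and at -0.28 in IL-1β against vehicle with TPM scaling, where Hars2 was at -0.10. Leaving out 1 library at a time, the highest value of Qars was 0.07 with either drug (without vehicle replicate 3 for both, or without bleomycin replicate 4 for bleomycin). With TPM scaling mitochondrial calls were 1 higher with bleomycin, and 0 higher and 6 lower with IL-1β, where 10.1% of all tested genes were higher and 52.6% lower. Both drugs against IL-1β then gave 15 higher and 0 lower cytosolic and 7 higher and 2 lower mitochondrial calls, against 59.3% of all tested genes higher and 11.5% lower. Median-of-ratios scaling gave 6 mitochondrial genes lower with bleomycin, where 23.2% of all tested genes were lower. With no filter, 1 mitochondrial gene was higher and 1 lower with IL-1β, against 11.2% and 7.66% of all tested genes.

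Leaving out each library in turn, cytosolic calls ranged from 18 to 19 lower with bleomycin, 18 to 19 lower with doxorubicin, and 16 to 18 lower and 0 to 1 higher with IL-1β (1 without vehicle replicate 1). Mitochondrial calls ranged from 3 to 4 lower and 0 to 1 higher with bleomycin (1 without bleomycin replicate 3, IL-1β replicate 2 or 4, or vehicle replicate 3 or 4), 6 to 7 lower with doxorubicin, and 1 to 3 higher and 1 to 2 lower with IL-1β (1 lower without IL-1β replicate 1 or 2 or vehicle replicate 2). Bleomycin against doxorubicin gave 0 to 1 cytosolic genes lower (1 without doxorubicin replicate 2), and both drugs against IL-1β 13 to 15 lower and 0 to 1 higher cytosolic (0 without IL-1β replicate 2 or 3) and 4 to 7 lower mitochondrial genes.

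Among all called genes, the share called higher was 59.5% with bleomycin against vehicle (49.9% with median-of-ratios scaling), 58.3% in bleomycin against doxorubicin (38.7%), 57.1% in IL-1β against vehicle (16.1% with TPM scaling) and 49.2% in both drugs against IL-1β (83.7%). The replicate numbers were not taken to pair the samples, because not every same-numbered pair correlated over 0.1: deviations of the 24 such pairs correlated at -0.023 to 0.214, 6 of them over 0.1, against at most 0.099 between different numbers. As a hint from the data that some numbers may be shared, 11 of 16 libraries correlated best with their own number. A replicate block moved no synthetase count, and with bleomycin it gave 3684 genes higher and 2525 lower, against 3619 and 2467 without it. The cause of these changes was not tested. Depth limits the genes of a few FPKM, and the unstated strand setting limits the 7 members with an opposite-strand neighbour above 5 FPKM.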
